A study of Homo sapiens with 16 samples.

Results

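HMC3, an established human microglial cell line, was treated with 2S6S-HNK alone, and the response was read by RNA sequencing. 2S6S-HNK is (2S,6S)-hydroxynorketamine, a metabolite of the antidepressant and anesthetic ketamine. The members are 4 of the 16 libraries of the series, chosen by the treatment in their labels. They are the 2 libraries of cells given 400 nM 2S6S-HNK for 24 h and the 2 libraries of cells given vehicle. No estradiol (E2) was present in either group. The mirror-image metabolite 2R6R-HNK and ketamine, each at 400 nM for 24 h, and 0.1 nM E2 with and without 2S6S-HNK were used for comparison, with 2 libraries each. All cells were kept in charcoal-stripped serum and then without serum for 24 h each before treatment, which was given without serum and phenol red. HMC3 is 1 cell line, and the labels do not say whether the libraries of a group came from separate cultures, so p-values measure the spread between these libraries, which may be technical. A change in a mean over cells cannot be told apart from a change in the share of cells that express a gene.

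The 2S6S-HNK libraries held 55300614 and 60533798 counts and the vehicle libraries 61599174 and 60115434, within the 55300614 to 81646165 of the series. Of 22 microglia and macrophage markers, 17 were under 1 CPM (counts scaled to library size) in all 4 libraries, and 6 of these had no count at all, so the labelled cell type was not borne out by its defining markers. The microglial CX3CR1 was among the 6, and P2RY12 and TMEM119 had at most 7 counts in a library. CD68, a lysosomal marker of macrophages, was present at 17.3 and 20.3 CPM in the vehicle libraries and 20.9 and 20.6 CPM in the 2S6S-HNK libraries. The 22 markers summed to 121 and 126 CPM in the vehicle libraries and 108 and 103 CPM in the 2S6S-HNK libraries. Pericyte and fibroblast markers, 11 genes led by the collagen COL1A1, summed to 6209 to 6242 CPM with vehicle and 6410 to 6709 CPM with 2S6S-HNK. Most of this was COL1A1 (4013 CPM in each vehicle library) and VIM (1406 and 1449 CPM with vehicle). Of the 11, 3 were under 1 CPM in all 4 libraries. These were LUM, which had no count, and COL3A1 and DCN, with at most 4 and 6 counts in a library. The 7 astrocyte markers summed to 169 and 172 CPM with vehicle and 119 and 121 CPM with 2S6S-HNK, nearly all of it the gap junction gene GJA1, which many cell types express. ALDH1L1 of the same list went the other way, from 2.86 and 2.93 CPM to 7.20 and 8.06 CPM. The 6 oligodendrocyte markers summed to 2.78 and 2.15 CPM with vehicle and 4.74 and 5.01 CPM with 2S6S-HNK, mostly MBP, and OLIG1 and OLIG2 had no count. The part of other cell types in the results was not tested.

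Ketamine is demethylated to norketamine and then hydroxylated to the hydroxynorketamines, which bind the glutamate-gated NMDA receptor far more weakly than ketamine does. Type I interferons signal through the kinases JAK1 and TYK2 to a complex that holds STAT2 and IRF9, which switch on interferon-stimulated genes such as MX1 and OAS1, and STAT3 is the related factor that carries interleukin-6 signals. Free zinc in the cell is sensed by the factor MTF1. When zinc is plentiful MTF1 binds metal response elements and raises metallothioneins, which bind zinc, and the exporter SLC30A1, and when zinc is scarce these genes fall.

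2S6S-HNK changed 1453 of 16004 genes tested (9.08%). A gene is called here where its adjusted p is under 0.05 and its level differs at least 2-fold, that is, by 1 or more on the log2 scale. Of the genes tested, 838 (5.24%) were called higher and 615 (3.84%) lower. Without the limit on fold change 10862 genes passed, 5136 (32.1%) higher and 5726 (35.8%) lower, and "rose" and "fell" are used below for these. The median log2 fold change of all genes was -0.03. Genes called higher were scarcer than those called lower, with median levels of 1.26 and 6.43 CPM against 15.7 CPM over all genes tested. Levels are TMM-normalized CPM, given below for library 1 and then library 2 of each group, errors are standard errors of the log2 fold change (n = 2 libraries a group), and p-values are Benjamini-Hochberg adjusted values of edgeR's quasi-likelihood test.

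GC content moved with the comparison and bears on most gene groups below. With genes ordered by exon GC content into 10 equal bins, the median log2 fold change ran from -0.64 in the lowest bin to 0.50 in the highest, and the rank correlation across 15339 genes was 0.65. Median GC content was 58.3% for the genes called higher and 40.6% for the genes called lower, against 48.7% for all genes tested. Against the same vehicle libraries the correlation was 0.75 for E2, 0.75 for 2R6R-HNK, 0.64 for ketamine and 0.44 for E2+2S6S-HNK. It was -0.04 for 2S6S-HNK against 2R6R-HNK, 0.35 against ketamine, and -0.35 for E2+2S6S-HNK against E2. With an offset that removes the trends with GC content and exon length from each library, 754 genes were called, 509 higher and 245 lower. Without the limit on fold change, 4074 genes passed as higher and 5031 as lower with it. Of the 754, 414 higher and 166 lower genes were called in the same direction without it. The log2 fold change with this offset is given beside most changes against vehicle, named as the GC-offset value, and beside some of the other differences. Whether the trend arose in the cells or in the libraries was not tested.

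**Figure D1:**
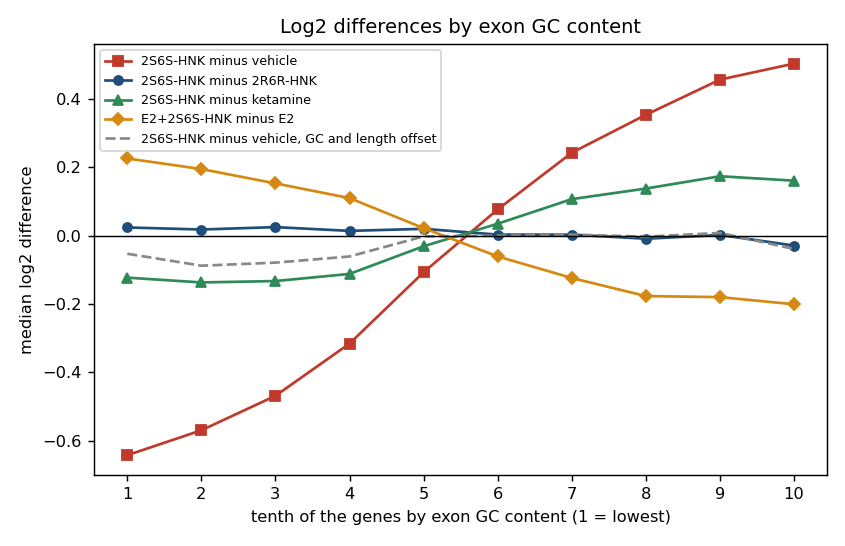
Median log2 difference (y axis) in each of 10 equal bins of genes ordered by exon GC content (x axis), for 4 comparisons and for 2S6S-HNK against vehicle with the GC and length offset. The line of 2S6S-HNK minus vehicle climbs from -0.64 to 0.50, while that of 2S6S-HNK minus 2R6R-HNK stays between -0.03 and 0.03.

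The 10 largest rises among genes of at least 5 CPM were KCNAB2, CDK18, TNXB, EMID1, TLE2, IGFBP5, ABCA3, PADI2, FBLN7 and HTRA1, named among called genes whose groups did not overlap. The limit is on the mean of the 4 libraries, so that several of them were under it with vehicle. KCNAB2, a cytoplasmic beta subunit of voltage-gated potassium channels (ENSG00000069424, chr1:6050987-6161253 on GRCh37), stood at 1.49 and 1.83 CPM in the vehicle libraries and 11.8 and 11 CPM in the 2S6S-HNK libraries. Its log2 fold change was 2.78 ± 0.14 (adjusted p = 9.47e-24, GC-offset value 2.33), a 6.87-fold rise. CDK18, a cyclin-dependent kinase of the PCTAIRE family (chr1:205473724-205501921), went from 11.1 and 10.5 CPM to 58.6 and 57.7 CPM, a log2 fold change of 2.43 ± 0.065 (adjusted p = 1.97e-34, GC-offset value 1.95). In both genes the 2 libraries of a group lay close together beside the gap between the groups. Exons of KCNAB2 overlap those of NPHP4 in the annotation.

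TNXB, the matrix glycoprotein tenascin-X (chr6:32008930-32083111), rose from 2.58 and 1.95 CPM to 11.6 and 12.3 CPM, a log2 fold change of 2.39 ± 0.12 (GC-offset value 1.83). TNXB overlaps CYP21A2 and has a near-identical partial copy, TNXA, beside it, so its level is uncertain. EMID1, an EMI domain protein of the matrix (chr22:29601885-29655586), rose from 2.58 and 1.83 CPM to 10.5 and 10.2 CPM (2.23 ± 0.12, GC-offset value 1.72). IGFBP5, which binds insulin-like growth factors outside the cell (chr2:217536828-217560272), rose from 8.88 and 7.6 CPM to 34.2 and 33.3 CPM, a log2 fold change of 2.03 ± 0.084 (adjusted p = 1.02e-26) that changed little with the offset (1.84). FBLN7, the adhesion protein fibulin 7 (chr2:112895962-112945795), rose from 2.4 and 2.67 CPM to 9.49 and 9.41 CPM (1.90 ± 0.13, GC-offset value 1.67). HTRA1, a secreted serine protease (chr10:124218067-124274423), rose from 2.22 and 2.55 CPM to 8.85 and 8.55 CPM (1.87 ± 0.13, GC-offset value 1.499).

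TLE2, a Groucho-type corepressor (chr19:2997637-3047633), rose from 3.76 and 4.21 CPM to 16.1 and 17 CPM (2.05 ± 0.10, GC-offset value 1.51). ABCA3, a lipid transporter of lysosome-related organelles (chr16:2325882-2390747), rose from 5.95 and 4.8 CPM to 19.6 and 22.3 CPM (1.96 ± 0.092, GC-offset value 1.49). PADI2, which turns arginine in proteins to citrulline (chr1:17393256-17445946), rose from 2.65 and 2.8 CPM to 10.1 and 10.9 CPM (1.94 ± 0.11, GC-offset value 1.72). All 10 kept a GC-offset value above 1.

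The 10 largest falls were SLC30A1, CPA4, MT1E, DHRS2, CHORDC1, ANXA1, RPP40, SUSD5, ID1 and ZNF326, chosen in the same way. SLC30A1 and MT1E are described with the other zinc genes below. CPA4, a secreted carboxypeptidase (ENSG00000128510, chr7:129932974-129964020), was the most abundant of them at 282 and 290.3 CPM in the vehicle libraries and 71.4 and 70.2 CPM in the 2S6S-HNK libraries. Its log2 fold change was -2.02 ± 0.032 (adjusted p = 4.71e-43) and its GC-offset value -2.08. ID1, an inhibitor of helix-loop-helix factors and a target of BMP signals (chr20:30193086-30194318), fell from 7.81 and 8.59 CPM to 3.25 and 2.24 CPM (-1.59 ± 0.13, adjusted p = 1.01e-15). Its GC-offset value was -1.94, and the 2S6S-HNK libraries differed from each other, so that leaving out each library in turn gave -1.87 to -1.34. DHRS2, a short-chain reductase (chr14:24099324-24114848), fell from 8.65 and 9.38 CPM to 2.65 and 2.63 CPM (-1.77 ± 0.13, GC-offset value -1.90). In these 3 genes the offset did not lessen the fall.

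In 5 others the offset took off part of it. ANXA1, the calcium-binding anti-inflammatory annexin A1 (chr9:75766781-75785309), fell from 160.5 and 162 CPM to 52.2 and 53.4 CPM (-1.61 ± 0.037, GC-offset value -1.01). CHORDC1, a cochaperone of HSP90 (chr11:89933597-89956245), fell from 60.2 and 60.7 CPM to 19.4 and 18.1 CPM (-1.69 ± 0.057, GC-offset value -1.05). RPP40, a subunit of ribonuclease P (chr6:4994951-5004297), fell from 24.9 and 25.4 CPM to 8.14 and 8.46 CPM (-1.60 ± 0.081, GC-offset value -1.31). SUSD5, a sushi domain protein (chr3:33191535-33260302), fell from 20.3 and 20.6 CPM to 6.79 and 6.73 CPM (-1.59 ± 0.084, GC-offset value -1.47), and the zinc finger protein gene ZNF326 (chr1:90460669-90501092) from 30.5 and 29.98 CPM to 10.6 and 10.4 CPM (-1.52 ± 0.069, GC-offset value -0.88). Only ZNF326 of the 10 had a GC-offset value inside 1 in size.

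**Figure D2:**
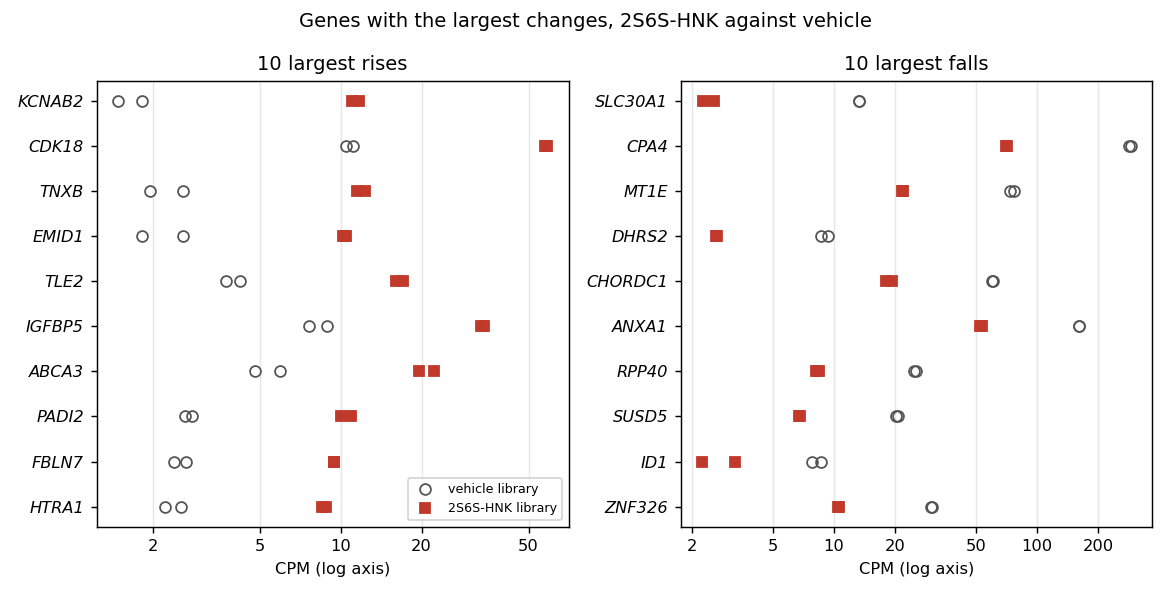
CPM on a log axis (x) of the 10 genes with the largest rises (left) and the 10 with the largest falls (right), 1 open circle for each vehicle library and 1 square for each 2S6S-HNK library. The rows run from KCNAB2, which went from 1.49 and 1.83 CPM to 11.8 and 11 CPM, to SLC30A1, which went from 13.4 and 13.3 CPM to 2.57 and 2.27 CPM.

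The zinc exporter SLC30A1 and 4 metallothionein genes fell, led by MT1E. SLC30A1, which pumps zinc out of the cell (ENSG00000170385, chr1:211744910-211752503), fell from 13.4 and 13.3 CPM to 2.57 and 2.27 CPM, a log2 fold change of -2.46 ± 0.11 (adjusted p = 1.2e-24, GC-offset value -2.02). MT1E (chr16:56659387-56661024) fell from 77 and 73.6 CPM to 21.8 and 21.5 CPM (-1.80 ± 0.046, adjusted p = 5.12e-35, GC-offset value -2.15). MT1F fell from 4.89 and 4.98 CPM to 2.3 and 2.43 CPM (-1.06 ± 0.13, GC-offset value -1.39), and MT1X from 7.18 and 7.08 CPM to 4.29 and 3.99 CPM (-0.79 ± 0.11, GC-offset value -0.99). MT2A, the most counted metallothionein gene here, fell from 307 and 293 CPM to 199 and 202 CPM (-0.58 ± 0.029, GC-offset value -0.77). Of 8 metallothionein genes tested, 1 rose, 4 fell and 3 did not pass, and the list's median was -0.68 (-0.88 with the offset) against -0.03 over all genes. The gene that rose, MT1L, went from 24.3 and 23.3 CPM to 27.2 and 25.9 CPM and had a GC-offset value of -0.23, so that its direction depends on the offset. The metallothionein genes resemble one another closely, and only uniquely mapped read pairs were counted, so reads that fit several of them are missing and each gene's level is uncertain.

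The proximal promoters of 3 of these genes are shown because the metal response element, the site of MTF1, has the core TGCACNC or TGCGCNC. Those of MT1E and MT1F were not among the promoter sequences used. Sequences are RefSeq's for GRCh38.p14, each 300 bases around the start of transcription, written 5′ to 3′ on the gene's strand. Matches on either strand are in capitals. The table may list several starts for a gene, and the first entry with a match is shown. SLC30A1 is at chr1:211579112-211579411 on the minus strand, MT1X at chr16:56682220-56682519 and MT2A at chr16:56608334-56608633, both on the plus strand.
SLC30A1: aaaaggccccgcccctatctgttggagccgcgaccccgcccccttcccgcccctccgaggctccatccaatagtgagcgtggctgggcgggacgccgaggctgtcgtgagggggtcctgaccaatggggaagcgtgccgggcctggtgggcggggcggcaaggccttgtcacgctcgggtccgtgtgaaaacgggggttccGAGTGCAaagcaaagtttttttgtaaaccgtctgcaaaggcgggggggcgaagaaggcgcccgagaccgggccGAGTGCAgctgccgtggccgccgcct
MT1X: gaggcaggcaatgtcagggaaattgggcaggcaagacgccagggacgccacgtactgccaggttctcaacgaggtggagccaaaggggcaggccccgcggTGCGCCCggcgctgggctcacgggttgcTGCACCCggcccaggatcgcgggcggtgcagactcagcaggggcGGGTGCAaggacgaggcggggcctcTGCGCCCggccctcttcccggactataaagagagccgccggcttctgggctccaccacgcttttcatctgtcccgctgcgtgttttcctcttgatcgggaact
MT2A: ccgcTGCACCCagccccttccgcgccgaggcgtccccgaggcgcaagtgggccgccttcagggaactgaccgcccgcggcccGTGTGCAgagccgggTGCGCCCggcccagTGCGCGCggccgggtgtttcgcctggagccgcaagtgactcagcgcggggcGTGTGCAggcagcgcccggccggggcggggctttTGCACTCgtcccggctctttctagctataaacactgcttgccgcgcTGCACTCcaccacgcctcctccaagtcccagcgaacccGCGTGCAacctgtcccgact
The core was found at 2 positions in SLC30A1, 4 in MT1X and 8 in MT2A. Over all 35116 promoters of the same length it was present in 29.6%, and 3 or more times in 2.30%. A match of these letters is not a binding site in these cells.

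Zinc importers and other transporters did not move as one. Of 21 zinc transporter genes tested, 6 rose, 12 fell and 3 did not pass, with a median of -0.31 (-0.13 with the offset). SLC30A1 and the scarce SLC30A2 were called. SLC30A2 had at most 0.098 CPM in any of the 4 libraries and no count with 2S6S-HNK. The importer SLC39A10, which is known to fall when zinc is plentiful, stood at 34.6 and 37.3 CPM in the vehicle libraries and 40.4 and 38.6 CPM in the 2S6S-HNK libraries, a log2 fold change of 0.14 ± 0.053 (adjusted p = 0.0206, GC-offset value 0.64). It, MT2A and MT1L were chosen after their values had been seen. MTF1 itself fell from 27.9 and 28.2 CPM to 23.2 and 23.5 CPM (-0.26 ± 0.060, GC-offset value -0.13).

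SLC30A1, SLC39A10 and metallothionein genes differed between the enantiomers at the same dose and time, while the median difference over the 21 zinc transporter genes was -0.006 and over the 8 metallothionein genes -1.48. MT1E stood at 115 and 120.2 CPM with 2R6R-HNK and 50.6 and 53.6 CPM with ketamine, and 2S6S-HNK lay -2.44 ± 0.045 on the log2 scale relative to 2R6R-HNK (adjusted p = 4.07e-40) and -1.27 ± 0.047 relative to ketamine. SLC30A1 stood at 11.6 and 13.3 CPM with 2R6R-HNK and 5.45 and 5.1 CPM with ketamine, differences of -2.36 ± 0.12 and -1.12 ± 0.12. MT1F differed from 2R6R-HNK by -1.83 ± 0.13, MT1X by -1.70 ± 0.11 and MT2A by -1.26 ± 0.029. In the opposite direction, SLC39A10 was at 18.2 and 17.8 CPM with 2R6R-HNK, and 2S6S-HNK was higher by 1.13 ± 0.057. Thus 2S6S-HNK had the lowest levels of SLC30A1 and the 4 metallothionein genes among these treatments without E2. In the presence of E2 the same genes were lower with 2S6S-HNK again, with log2 differences of -1.89 ± 0.12 for SLC30A1 (9.0 and 7.44 CPM with E2, 2.32 and 2.11 CPM with E2+2S6S-HNK), -1.66 ± 0.047 for MT1E and -1.13 ± 0.11 for MT1X.

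**Figure D3:**
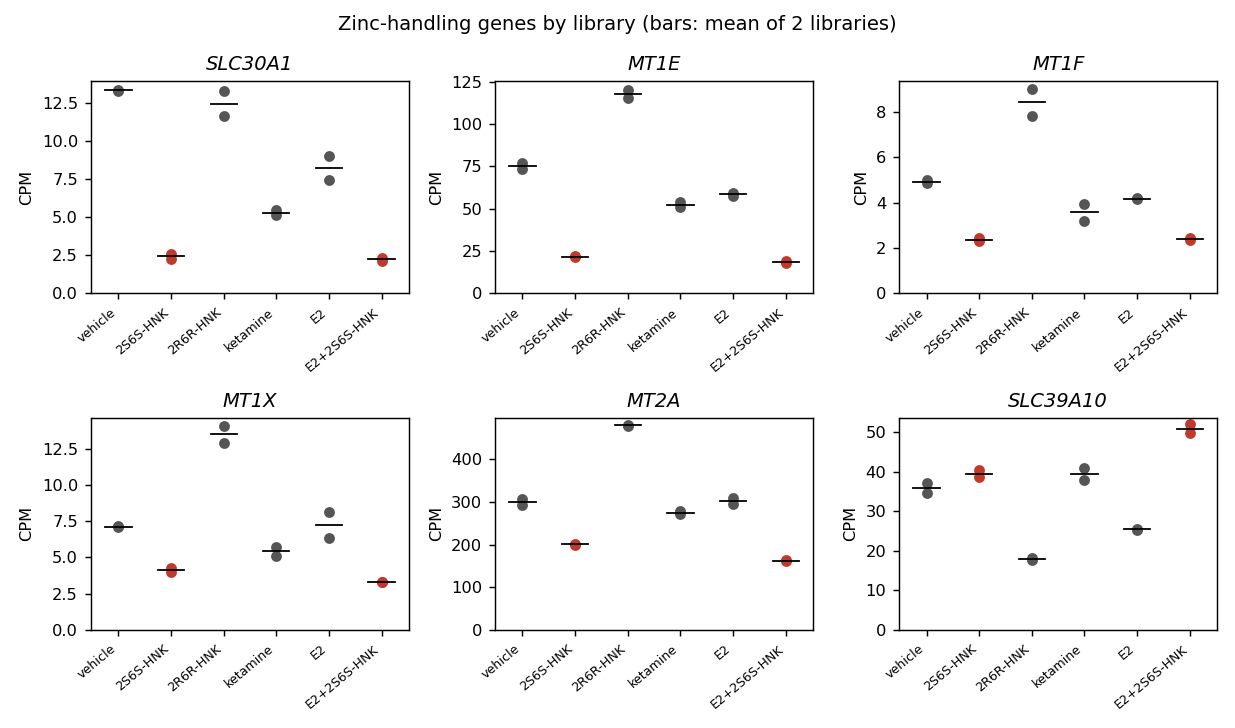
CPM (y axis, from 0) of 6 zinc-handling genes in 6 groups (x axis), 1 point for each library and a bar at the mean of 2 libraries, with groups given 2S6S-HNK in red. The red points of SLC30A1, MT1E, MT1F, MT1X and MT2A are the lowest in each panel, while SLC39A10 is lowest with 2R6R-HNK.

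Interferon-stimulated genes rose more often than they fell. Of 57 tested, 28 rose, 18 fell and 11 did not pass, and the median was 0.37 against -0.03 over all genes (0.38 with the offset, after which 29 rose and 6 fell). The list's median against vehicle was 0.515 with 2R6R-HNK and 0.464 with ketamine, and 0.013 for E2+2S6S-HNK against E2. 10 of the 57 were called higher and 1 lower, beside 5.24% and 3.84% of all genes tested. The 4 called members of at least 1 CPM with the largest changes were IFITM1, UBA7, MX1 and IFI6. MX1, a GTPase that blocks viral replication, stood at 1.41 and 1.85 CPM in the vehicle libraries and 4.01 and 4.7 CPM in the 2S6S-HNK libraries (1.42 ± 0.18, adjusted p = 8.56e-10, GC-offset value 1.38). IFI6, a survival protein induced by interferon, rose from 12.3 and 11.9 CPM to 28.8 and 27.3 CPM (1.21 ± 0.067, GC-offset value 0.94), and UBA7, which activates the ubiquitin-like ISG15, rose from 1.31 and 1.91 CPM to 6.0 and 5.8 CPM (1.87 ± 0.15, GC-offset value 1.44). IFITM1, a membrane protein that hinders viral entry, was at 1.37 and 1.06 CPM in the vehicle libraries and 3.96 and 13.1 CPM in the 2S6S-HNK libraries. IFITM1 has close copies in IFITM2 and IFITM3, which can share reads. Its log2 fold change of 2.81 ± 0.27 (GC-offset value 2.45) rested on an uneven pair, and leaving out 1 library at a time gave 1.70 (without 2S6S-HNK library 2) to 3.42 (without 2S6S-HNK library 1). IFIT5 was the 1 member called lower, from 16.4 and 16.4 CPM to 7.79 and 8.16 CPM (-1.04 ± 0.082, GC-offset value -0.52), and was chosen after its value had been seen.

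Several antiviral genes were scarce in these cells. OAS1, a sensor of viral RNA, stood at 0.327 and 0.302 CPM in the vehicle libraries and 0.931 and 1.14 CPM in the 2S6S-HNK libraries (1.71 ± 0.32, adjusted p = 6.92e-06, GC-offset value 2.07). MX2 was at 0.262 and 0.285 CPM in the vehicle libraries and 0.712 and 0.712 CPM in the 2S6S-HNK libraries (1.38 ± 0.39, adjusted p = 0.00165, GC-offset value 1.35). OAS2 was at 0.163 and 0.168 CPM in the vehicle libraries and 0.219 and 0.458 CPM in the 2S6S-HNK libraries, which did not pass (adjusted p = 0.123). The ubiquitin-like ISG15, in contrast, was well above these at 27.9 and 28.2 CPM in the vehicle libraries and 48.9 and 48.4 CPM in the 2S6S-HNK libraries, and rose (0.80 ± 0.050, GC-offset value 0.35).

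A 30-base stretch of each promoter is shown around the core of the interferon-stimulated response element, which is GAAA, any 2 bases and GAAA, on either strand and in capitals, for 3 members that rose and for IFIT5, one of those that fell.
MX1: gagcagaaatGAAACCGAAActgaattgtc
IFITM1: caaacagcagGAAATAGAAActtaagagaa
IFI6: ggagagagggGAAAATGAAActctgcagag
IFIT5: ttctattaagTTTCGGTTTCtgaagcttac
The promoter entries are RefSeq's on GRCh38.p14 (chr21:41420308-41420607, chr11:313790-314089 and chr10:89414318-89414617 on the plus strand, chr1:27672143-27672442 on the minus strand). The letters occur in 3.57% of the 35116 promoters. The 4 members were chosen among those with a match, and OAS1, which rose, had no match in its promoter.

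The transducers of these signals were split. Of 28 JAK, STAT, SOCS and inhibitor genes, 11 rose, 13 fell and 4 did not pass, with a median of -0.066. STAT3 rose from 133 and 134 CPM to 189 and 191 CPM (0.51 ± 0.029, adjusted p = 3.3e-21, GC-offset value 0.52). STAT2 rose from 64.8 and 68.2 CPM to 123 and 132 CPM (0.94 ± 0.037, GC-offset value 0.82) and its partner IRF9 from 17.1 and 15.4 CPM to 30.3 and 30.1 CPM (0.90 ± 0.062, GC-offset value 0.68). STAT5A, whose exons overlap its copy STAT5B, rose from 4.05 and 4.01 CPM to 7.65 and 8.82 CPM (1.03 ± 0.11, GC-offset value 0.63) and the lymphoid kinase JAK3 from 2.75 and 1.83 CPM to 5.02 and 6.28 CPM (1.30 ± 0.15, GC-offset value 0.90). The receptor-bound kinase JAK1 fell from 127 and 133 CPM to 85.6 and 87.7 CPM (-0.58 ± 0.034, GC-offset value -0.55), and the phosphatase PTPN11 from 318 and 323 CPM to 155 and 153 CPM (-1.06 ± 0.028, GC-offset value -0.76).

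With the offset JAK3, STAT5A and PTPN11 were no longer past 2-fold, so no member of the list was called. JAK2 and IRF7 passed only without it. JAK2 fell from 8.32 and 9.11 CPM to 5.35 and 4.85 CPM (-0.77 ± 0.11), but its GC-offset value of -0.23 did not pass (adjusted p = 0.0769). IRF7, which amplifies interferon production, rose from 30.2 and 30.01 CPM to 46.5 and 49 CPM (0.67 ± 0.052), with a GC-offset value of 0.089 (adjusted p = 0.0925). SOCS3, a feedback inhibitor of JAK kinases, differed by 0.10 ± 0.044 (adjusted p = 0.0479) from 48 and 46 CPM to 50.2 and 50.4 CPM, and its GC-offset value was -0.34. SOCS1 was at 0.899 and 0.688 CPM in the vehicle libraries and 0.858 and 0.797 CPM in the 2S6S-HNK libraries and did not pass (adjusted p = 0.878), and its GC-offset value was -0.51.

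Genes of antigen presentation and complement rose more often than they fell. Of 18 genes of MHC class I presentation, 12 rose, 2 fell and 4 did not pass, with a median of 0.62 (0.41 with the offset, after which 13 rose and 2 fell). HLA-B rose from 104 and 103 CPM to 209 and 214 CPM (1.03 ± 0.029, adjusted p = 2.76e-33, GC-offset value 0.74), and the immunoproteasome subunit PSMB9 rose from 3.63 and 2.75 CPM to 6.28 and 6.87 CPM (1.04 ± 0.12, GC-offset value 1.14). HLA genes are polymorphic and alike, so reads may be split among them. Of 14 complement genes, 8 rose, 3 fell and 3 did not pass, with a median of 0.69 (0.52 with the offset, after which 7 rose and 1 fell). The protease C1R rose from 3.86 and 3.99 CPM to 10.3 and 10.6 CPM (1.41 ± 0.10, GC-offset value 1.14) and its neighbour C1RL from 7.03 and 6.55 CPM to 14.5 and 13.7 CPM (1.05 ± 0.084, GC-offset value 0.81), but the annotated exons of C1R and C1RL overlap. The C1 inhibitor SERPING1 rose from 2.4 and 2.25 CPM to 5.91 and 6.8 CPM (1.45 ± 0.13, GC-offset value 1.32). C2, at 0.703 and 0.738 CPM in the vehicle libraries and 2.15 and 1.53 CPM in the 2S6S-HNK libraries, was also called (1.35 ± 0.26, GC-offset value 1.16).

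Cytokine genes were mostly scarce and did not move as one. Of 25, 5 rose, 6 fell and 14 did not pass, while over all genes tested 32.1% rose and 35.8% fell. The median of 0.042 became -0.24 with the offset, although 7 then rose and 4 fell. With the offset 3 were called higher and 0 lower, beside 509 and 245 of all 16004 genes tested. GDF15, a stress cytokine, rose from 1.55 and 1.86 CPM to 6.13 and 5.56 CPM (1.77 ± 0.14, GC-offset value 1.36). The other called members were under 1.5 CPM and were chosen after their values had been seen. They were CX3CL1 at 0.507 and 0.52 CPM in the vehicle libraries and 1.48 and 1.27 CPM in the 2S6S-HNK libraries, IL1A at 0.278 and 0.151 CPM in the vehicle libraries and 0.0365 and 0.0509 CPM in the 2S6S-HNK libraries, and CXCL8 at 0.229 and 0.369 CPM in the vehicle libraries and 0 and 0.17 CPM in the 2S6S-HNK libraries. With the offset CX3CL1 passed (1.07), and IL1A (adjusted p = 0.11) and CXCL8 (adjusted p = 0.285) did not. IL6 was at 0.964 and 1.06 CPM in the vehicle libraries and 0.474 and 0.645 CPM in the 2S6S-HNK libraries (-0.85 ± 0.31, adjusted p = 0.0152), and its GC-offset value of -0.67 did not pass (adjusted p = 0.0668). IL11 was the only one of those named here above 20 CPM and fell from 73.4 and 69.8 CPM to 47.7 and 51.3 CPM (-0.53 ± 0.044, GC-offset value -0.91). Of 22 cytokine and interferon receptor genes, 10 rose, 10 fell and 2 did not pass, and none was past 2-fold with the offset. Among them IL7R fell from 26.4 and 25.7 CPM to 12 and 12.7 CPM (-1.08 ± 0.077, GC-offset value -0.67) and the interferon lambda receptor IFNLR1 rose from 6.08 and 5.76 CPM to 11.8 and 12.5 CPM (1.04 ± 0.093, GC-offset value 0.72).

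Most chaperone genes fell. Of 46 tested, 6 rose, 35 fell and 5 did not pass, and the median was -0.56 (-0.38 with the offset). The list's median against vehicle was -0.42 with 2R6R-HNK and -0.39 with ketamine, and -0.095 for E2+2S6S-HNK against E2. HSP90AA1, the inducible cytosolic HSP90, fell from 1717 and 1726 CPM to 708 and 688 CPM (-1.30 ± 0.022, adjusted p = 2.94e-42, GC-offset value -1.12). It was also lower than vehicle with 2R6R-HNK (-1.13), ketamine (-1.37) and E2 alone (-1.07). The nucleotide exchange factor HSPH1 fell from 88 and 89.1 CPM to 32.2 and 33.6 CPM (-1.43 ± 0.048, GC-offset value -0.88) and the HSP70 cochaperone DNAJA1 from 224 and 230.01 CPM to 88.2 and 85.3 CPM (-1.39 ± 0.032, GC-offset value -0.93). The constitutive HSPA8 fell from 2293 and 2376 CPM to 1231 and 1244 CPM (-0.92 ± 0.020, GC-offset value -0.96). The inducible HSPA1A fell by less, from 273 and 275 CPM to 236 and 241 CPM (-0.20 ± 0.028, GC-offset value -0.62), and cannot be told fully apart from its copy HSPA1B. The small heat shock protein HSPB1 rose by 0.23 ± 0.027, with a GC-offset value of -0.26. In the endoplasmic reticulum 12 of 21 chaperone genes fell and 5 rose, among the former HSPA5 from 942 and 962 CPM to 545 and 543 CPM (-0.81 ± 0.021, GC-offset value -0.53) and DNAJC3 from 36.8 and 36.6 CPM to 16.8 and 17.4 CPM (-1.10 ± 0.063, GC-offset value -0.63).

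Most proteasome subunit and splicing factor genes fell as well. Of 37 proteasome subunit genes, 5 rose, 27 fell and 5 did not pass, with a median of -0.37 (-0.27 with the offset). Their median against vehicle was -0.15 with 2R6R-HNK and -0.40 with ketamine, and -0.11 for E2+2S6S-HNK against E2. PSMC1, an ATPase of the regulatory particle, fell from 174 and 178 CPM to 74.3 and 76.1 CPM (-1.23 ± 0.034, GC-offset value -1.07), PSMC6 from 71.3 and 73.6 CPM to 29.9 and 28.2 CPM (-1.32 ± 0.052, GC-offset value -0.77), and the deubiquitinase PSMD14 from 84.2 and 84.1 CPM to 35.7 and 35.1 CPM (-1.25 ± 0.046, GC-offset value -0.59). Exons of PSMC1 overlap those of NRDE2, and those of HSP90AA1 and WDR20 overlap too. Of 36 splicing factor genes, 2 rose, 32 fell and 2 did not pass, with a median of -0.58 (-0.30 with the offset). Their median against vehicle was -0.48 with 2R6R-HNK and -0.43 with ketamine, and -0.049 for E2+2S6S-HNK against E2. HNRNPM fell from 360.0 and 349 CPM to 158 and 158 CPM (-1.16 ± 0.027, GC-offset value -1.40), SRSF1 from 359 and 357 CPM to 151 and 146 CPM (-1.27 ± 0.028, GC-offset value -0.77) and HNRNPH1 from 276 and 284 CPM to 118 and 114 CPM (-1.27 ± 0.029, GC-offset value -1.01). Of 463 ZNF genes, 236 fell and 84 rose, and their median of -0.36 shrank to -0.12 with the offset.

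Cell cycle genes fell more often than they rose. Of 56, 19 rose, 33 fell and 4 did not pass, with a median of -0.21 (-0.16 with the offset). The proliferation marker MKI67 fell from 504 and 522 CPM to 303 and 308 CPM (-0.75 ± 0.025, GC-offset value -0.72) and the G1 cyclin CCND1 from 369.8 and 374 CPM to 187 and 181 CPM (-1.01 ± 0.027, GC-offset value -1.23). The mitotic kinesin KIF11 fell from 148 and 153 CPM to 74 and 70.1 CPM (-1.06 ± 0.036, GC-offset value -0.62). Exons of CCND1 overlap those of ORAOV1. TOP2A, which untangles replicated DNA, fell from 528 and 541 CPM to 371 and 356 CPM (-0.56 ± 0.025), but its GC-offset value was -0.032. CDKN1A, the cell cycle inhibitor p21, rose from 116 and 115 CPM to 231 and 233 CPM (1.002 ± 0.029, GC-offset value 0.62). The fall in MKI67 stayed at nearly its size with the offset and that in TOP2A did not.

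Amino acid and lipid genes held single large changes. ASNS, which makes asparagine and is a target of the stress factor ATF4, rose from 55.9 and 53.7 CPM to 136 and 132 CPM (1.29 ± 0.036, adjusted p = 1.44e-33, GC-offset value 1.62), and PHGDH, the first enzyme of serine synthesis, rose from 177 and 176 CPM to 358 and 372 CPM (1.05 ± 0.027, GC-offset value 0.88). The list of 30 ATF4 and stress response genes did not move as one, since 14 rose, 10 fell and 6 did not pass (13 rose and 14 fell with the offset). As normalized 3 of the 30 were called higher and 0 lower, beside 5.24% and 3.84% of all genes tested. With the offset these counts were 3 and 0 again, beside 509 and 245 of 16004 genes. Of 25 cholesterol genes, 15 rose, 7 fell and 3 did not pass, with a median of 0.27 (0.23 with the offset). Of 16 fatty acid synthesis genes, 8 rose and 8 fell (4 and 6 with the offset), with a median of -0.024. Among them ACSS2, which makes acetyl-CoA from acetate, rose from 63.4 and 66.7 CPM to 178 and 177 CPM (1.45 ± 0.035, GC-offset value 1.27). ELOVL6 fell from 7.03 and 7.72 CPM to 3.45 and 3.68 CPM (-1.05 ± 0.13, GC-offset value -0.65). GCLM, a subunit of the enzyme that starts glutathione synthesis, fell from 16.2 and 19.2 CPM to 8.7 and 7.72 CPM (-1.11 ± 0.089, GC-offset value -0.59).

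The ribosomal, respiratory chain, glycolysis and lysosome lists are given by their counts. Of 82 cytosolic ribosomal protein genes, 51 rose, 28 fell and 3 did not pass, with a median of 0.13 (0.051 with the offset, after which 43 rose and 34 fell) and none past 2-fold. Of 76 nuclear-encoded subunits of the respiratory chain, 31 rose, 33 fell and 12 did not pass, again with none past 2-fold. Of 21 glycolysis genes, 15 rose, 4 fell and 2 did not pass, and the median of 0.23 became -0.014 with the offset, after which 10 rose and 10 fell. Of 27 lysosome genes, 20 rose, 6 fell and 1 did not pass, with a median of 0.33 (0.11 with the offset), after which 15 rose and 8 fell. As normalized, 3 were called higher and 1 lower, beside 5.24% and 3.84% of all genes tested. TFEB, the factor that drives lysosomal genes, rose from 7.39 and 6.04 CPM to 13.7 and 14.9 CPM (1.09 ± 0.089, GC-offset value 0.61), and GAA, which breaks down glycogen in lysosomes, rose from 39.6 and 40.2 CPM to 81.8 and 87.3 CPM (1.08 ± 0.042, GC-offset value 0.52). The related factor MITF fell from 14.5 and 14.2 CPM to 6.81 and 5.84 CPM (-1.18 ± 0.10, GC-offset value -0.73). Of 12 estrogen receptor and coregulator genes, 2 rose, 8 fell and 2 did not pass, with a median of -0.21 (-0.34 with the offset).

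Genes of potassium channels and vesicle release rose more often than they fell, though most were scarce. Of 57 potassium channel genes tested, 24 rose, 5 fell and 28 did not pass, with a median of 0.54 (0.30 with the offset, after which 19 rose and 8 fell). Called were 11 higher and 4 lower (7 and 4 with the offset), beside 5.24% and 3.84% of all genes tested as normalized. Besides KCNAB2, its relative KCNAB3 rose from 7.04 and 5.67 CPM to 14.1 and 13.6 CPM (1.12 ± 0.11, GC-offset value 0.79) and KCNG1, a silent modifier of Kv2 channels, from 10.2 and 9.05 CPM to 21.9 and 22.6 CPM (1.21 ± 0.079, GC-offset value 0.79). The scarce KCNIP4 fell from 1.6 and 1.88 CPM to 0.858 and 0.645 CPM (-1.21 ± 0.32, GC-offset value -0.76). Glutamate receptor genes, 10 of 26 tested, included 5 that rose and 1 that fell (2 and 1 with the offset), with GRIN3B at 1.18 and 1.06 CPM in the vehicle libraries and 3.32 and 3.14 CPM in the 2S6S-HNK libraries (1.53 ± 0.19, GC-offset value 0.89) and GRIK4 at 1.23 and 1.66 CPM in the vehicle libraries and 3.27 and 4.56 CPM in the 2S6S-HNK libraries (1.44 ± 0.17, GC-offset value 1.23). Of 13 postsynaptic scaffold genes, 8 rose and 2 fell, but 2 rose and 5 fell with the offset, so that the direction of this list depends on it. DLG4, the postsynaptic scaffold PSD-95, rose from 16.3 and 17.5 CPM to 32.5 and 38.4 CPM (1.07 ± 0.066, adjusted p = 6.96e-20, GC-offset value 0.70). SYN1, a synaptic vesicle protein, was at 0.49 and 0.42 CPM in the vehicle libraries and 1.0 and 0.933 CPM in the 2S6S-HNK libraries (1.08 ± 0.36, adjusted p = 0.00712), and its GC-offset value of 0.64 did not pass (adjusted p = 0.124). Exons of GRIN3B, DLG4 and SYN1 overlap those of TMEM259, ACADVL and ARAF. Of 30 vesicle release genes, 12 rose, 4 fell and 14 did not pass (10 rose and 2 fell with the offset). Over all genes tested 32.1% rose and 35.8% fell as normalized. Among them RIMS3 rose from 10.1 and 9.99 CPM to 25.3 and 25.9 CPM (1.36 ± 0.070, GC-offset value 1.04). Of 16 neurotransmitter transporter genes, 8 rose and 2 fell (7 and 4 with the offset). SLC1A1, a glutamate transporter, rose from 2.14 and 2.2 CPM to 5.24 and 5.22 CPM (1.27 ± 0.13, GC-offset value 1.55). SLC1A3 of the same list fell from 4.0 and 3.22 CPM to 1.9 and 1.49 CPM (-1.10 ± 0.17, GC-offset value -0.70).

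EEF2, its kinase EEF2K, BDNF and SIN3A moved by less than 2-fold. EEF2, the elongation factor that moves the ribosome along, rose from 3685 and 3615 CPM to 5510.4 and 5769 CPM (0.63 ± 0.018), of which 0.16 remained with the offset. EEF2K, which turns EEF2 off, rose from 32.2 and 34.1 CPM to 46 and 48.5 CPM (0.51 ± 0.047, GC-offset value 0.43). BDNF, a neurotrophin, fell from 30.2 and 29.2 CPM to 25.4 and 24.2 CPM (-0.26 ± 0.058), but its GC-offset value of -0.11 did not pass (adjusted p = 0.0999), and its exons overlap the antisense gene BDNF-AS. SIN3A, a corepressor of transcription, fell from 99.99 and 104 CPM to 82.3 and 79.98 CPM (-0.33 ± 0.038), with a GC-offset value of -0.067 (adjusted p = 0.0842). EIF4E, which binds the mRNA cap and is a member of the mTOR list, fell further, from 62.7 and 61.8 CPM to 31.1 and 28.7 CPM (-1.06 ± 0.054, GC-offset value -0.55).

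Collagen and clock genes rose more often than they fell. Of 31 collagen genes, 20 rose, 2 fell and 9 did not pass, with a median of 0.31 (0.30 with the offset, after which 17 rose and 6 fell), among them COL8A2, from 10.4 and 11.5 CPM to 31.1 and 32.1 CPM (1.53 ± 0.062, GC-offset value 1.01). The abundant THBS1, which activates TGF-beta, fell from 1872 and 1905 CPM to 854 and 873 CPM (-1.13 ± 0.020, GC-offset value -0.94). Of 21 clock genes, 11 rose, 6 fell and 4 did not pass, with a median of 0.56 (0.31 with the offset, after which 12 rose and 4 fell). The repressor PER1 rose from 21 and 20.7 CPM to 48.7 and 48.8 CPM (1.23 ± 0.053, GC-offset value 0.71) and the output factor TEF from 11.4 and 13 CPM to 29.5 and 31.3 CPM (1.32 ± 0.069, GC-offset value 0.92), while CLOCK fell from 43.6 and 44.2 CPM to 22.1 and 20.6 CPM (-1.04 ± 0.060, GC-offset value -0.49). CEBPD, an acute phase factor, rose from 4.74 and 4.6 CPM to 16.2 and 14.6 CPM (1.72 ± 0.086, GC-offset value 1.21), and FOS and FOSB were near 1 CPM with vehicle and rose by 1.66 ± 0.19 and 1.77 ± 0.21 (GC-offset values 1.42 and 1.38). Of 31 immediate early genes, 14 rose, 7 fell and 10 did not pass, and the list had a median of 0.087, which became -0.22 with the offset, after which 9 rose and 14 fell.

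**Figure D4:**
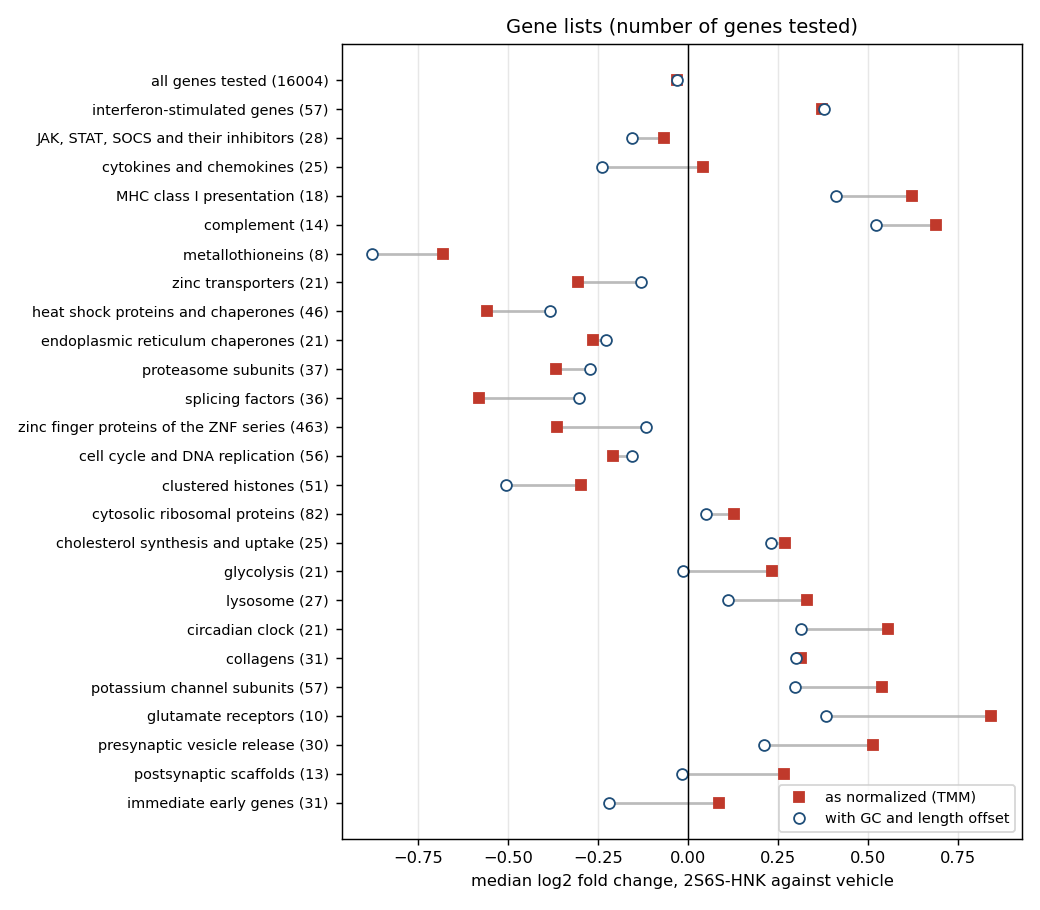
Median log2 fold change of 2S6S-HNK against vehicle (x axis) for all genes and for 25 gene lists (y axis, with the number of genes tested), as normalized (squares) and with the GC and length offset (circles). Metallothioneins, chaperones, proteasome subunits and splicing factors lie below 0 with both, and interferon-stimulated, MHC class I and complement genes above 0 with both.

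2S6S-HNK and 2R6R-HNK, which differ in the configuration at both stereocentres, were compared directly, with no vehicle library in the contrast. They differed in 405 genes (2.53%), 242 higher and 163 lower with 2S6S-HNK (6959 without the limit on fold change), and 410 genes were called with the GC and length offset. The largest higher genes were IGFBP5, IFITM1, TNXB, KCNAB2 and KIRREL3, and the largest lower genes MT1E, SLC30A1, MT1F, MT1X and ID1. IGFBP5 was at 6.43 and 7.59 CPM with 2R6R-HNK, a difference of 2.28 ± 0.085 (adjusted p = 1.98e-27), KCNAB2 at 3.56 and 3.48 CPM (1.69 ± 0.12), and TNXB at 3.67 and 3.45 CPM (1.74 ± 0.11). KIRREL3, an adhesion protein of the synapse and kidney filter, was at 29 and 28.9 CPM with vehicle, 101 and 108 CPM with 2S6S-HNK and 38.8 and 36.4 CPM with 2R6R-HNK (difference 1.47 ± 0.043, GC-offset value 1.44). ID1 was at 7.98 and 9.13 CPM with 2R6R-HNK (-1.64 ± 0.13, adjusted p = 1.7e-15). In each of these the 2S6S-HNK libraries lay outside the range of the 2R6R-HNK libraries, which their choice by the size of this difference makes likely.

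Other genes changed by 2S6S-HNK differed little between the enantiomers, as their intervals show. The 95% interval of the difference was -0.094 to 0.038 for PTPN11, -0.15 to 0.23 for IL7R, -0.17 to 0.12 for CLOCK, -0.19 to 0.073 for EIF4E and -0.078 to 0.32 for C1R, none of which passed as normalized. With the offset the difference in PTPN11 passed at -0.10 (adjusted p = 0.000218), and the other 4 did not. It was -0.22 to -0.12 for HSP90AA1, which passed (adjusted p = 9.54e-09) at a small size. MX1, MX2 and OAS1 were lower with 2S6S-HNK than with 2R6R-HNK, with differences of -0.39 ± 0.15 (adjusted p = 0.0347), -0.89 ± 0.31 (adjusted p = 0.0175) and -0.63 ± 0.26 (adjusted p = 0.0432). IFITM1, at 2.03 and 2.82 CPM with 2R6R-HNK, was higher with 2S6S-HNK (1.84 ± 0.24), where library 2 sets most of the difference.

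Against ketamine, the parent drug, 283 genes (1.77%) differed, 107 higher and 176 lower with 2S6S-HNK (7382 without the limit on fold change), and 254 genes were called with the GC and length offset. Beside IGFBP5 (9.76 and 11.7 CPM with ketamine, a difference of 1.65 ± 0.078) and IFITM1 (3.16 and 2.41 CPM with ketamine, beside an uneven 3.96 and 13.1 CPM with 2S6S-HNK, so that its place rests on 2S6S-HNK library 2), the largest higher genes were ACTC1, ACTG2 and SEMA5A. The muscle actins ACTC1 and ACTG2 were at 5.49 and 5.92 CPM and 20.9 and 24.6 CPM with vehicle, 9.43 and 8.63 CPM and 31.4 and 32.1 CPM with 2S6S-HNK, and 2.93 and 3.95 CPM and 13.7 and 13.7 CPM with ketamine, differences from ketamine of 1.39 ± 0.11 and 1.21 ± 0.063. SEMA5A, an axon guidance protein, rose from 12.2 and 12 CPM to 43.7 and 42.9 CPM (1.84 ± 0.060, GC-offset value 2.02) and was at 19.7 and 18 CPM with ketamine (1.20 ± 0.055). The largest lower genes were ID1 (9.38 and 9.13 CPM with ketamine, -1.76 ± 0.12), IGFN1, CRISPLD2, CDKN1C and CPA4 (190.2 and 188 CPM with ketamine, -1.42 ± 0.032).

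CDKN1C, CRISPLD2 and IGFN1 lay lowest with 2S6S-HNK of the treatments without E2. CDKN1C, the cell cycle inhibitor p57, was at 42.2 and 39.4 CPM in the vehicle libraries and 30.9 and 29.5 CPM in the 2S6S-HNK libraries, 64.5 and 63.8 CPM with 2R6R-HNK and 83.9 and 82.6 CPM with ketamine. 2S6S-HNK lay -0.44 ± 0.050 relative to vehicle (GC-offset value -1.01), -1.09 ± 0.048 relative to 2R6R-HNK and -1.46 ± 0.047 relative to ketamine. CRISPLD2, a secreted protein that binds lipopolysaccharide, was at 25.5 and 26 CPM in the vehicle libraries and 14 and 14.4 CPM in the 2S6S-HNK libraries, 42.1 and 42.8 CPM with 2R6R-HNK and 40.4 and 39.7 CPM with ketamine, with differences of -1.58 ± 0.057 and -1.497 ± 0.057 from these and a GC-offset value of -1.07 against vehicle. IGFN1, an immunoglobulin-like and fibronectin domain protein, fell from 13.4 and 13.2 CPM to 5.35 and 5.56 CPM (-1.29 ± 0.089, GC-offset value -1.67) and was at 10.6 and 10.4 CPM with 2R6R-HNK and 17.5 and 17.2 CPM with ketamine (-1.67 ± 0.086). For CDKN1C and CRISPLD2 the levels with 2R6R-HNK and ketamine were above vehicle and those with 2S6S-HNK below it.

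The same drug was also given in the presence of E2, and the contrast of E2+2S6S-HNK with E2 shares no library with that of 2S6S-HNK and vehicle. It called 326 genes higher (2.04%) and 261 lower (1.63%). Of the 838 genes higher with 2S6S-HNK alone, 147 (17.5%) were called higher there as well, which is 45.1% of the 326, and 2 were called lower. Of the 615 lower genes, 56 (9.11%) were called lower there, which is 21.5% of the 261, and 7 were called higher. With the GC and length offset these shares were 29.1% of 509 higher genes and 28.2% of 245 lower genes. The correlation of the log2 fold changes across genes was 0.21, and 0.43 with the offset. Genes are not independent replicates.

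Among the genes that moved in both settings were several with large direct differences from 2R6R-HNK or ketamine. IGFBP5 went from 9.82 and 7.85 CPM with E2 to 33.1 and 30.2 CPM with E2+2S6S-HNK (1.84 ± 0.082), SEMA5A from 15.4 and 14.1 CPM to 45.6 and 45.3 CPM (1.62 ± 0.058), and ASNS from 51.3 and 50.5 CPM to 126 and 130.2 CPM (1.33 ± 0.036). CPA4 went from 222 and 221 CPM to 65.2 and 65.3 CPM (-1.76 ± 0.032), ID1 from 10.5 and 9.0 CPM to 2.94 and 2.69 CPM (-1.78 ± 0.12), and CRISPLD2 from 47.5 and 47.4 CPM to 12.3 and 11 CPM (-2.02 ± 0.057). HSP90AA1 was at 829 and 812 CPM with E2 and 853 and 881 CPM with E2+2S6S-HNK (0.079 ± 0.022). MX1 was at 2.27 and 1.32 CPM with E2 and 2.02 and 2.15 CPM with E2+2S6S-HNK (0.20 ± 0.19, adjusted p = 0.376).

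The difference between the effects with and without E2 was tested as an interaction. It passed for 10418 genes, and 1714 (10.7%) passed with a difference of at least 1, 1240 of them higher and 474 lower with E2. The difference followed GC content with a rank correlation of -0.76, and with the GC and length offset 268 genes passed with a difference of at least 1, 120 higher and 148 lower. HSP90AA1 had an interaction of 1.38 ± 0.031 (GC-offset value 1.11), ANXA1 of 1.27 ± 0.053 (0.42) and MX1 of -1.22 ± 0.26 (-1.15). For IGFBP5 it was -0.19 ± 0.12 (adjusted p = 0.158), for MT1E 0.14 ± 0.067 (adjusted p = 0.0674), for ID1 -0.20 ± 0.18 (adjusted p = 0.343) and for ASNS 0.035 ± 0.051 (adjusted p = 0.565), none of which passed as normalized. With the offset, IGFBP5 (0.056, adjusted p = 0.747) and ID1 (0.25, adjusted p = 0.284) again did not pass, but MT1E (0.58, adjusted p = 8.22e-12) and ASNS (-0.43, adjusted p = 2.41e-12) did.

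**Figure D5:**
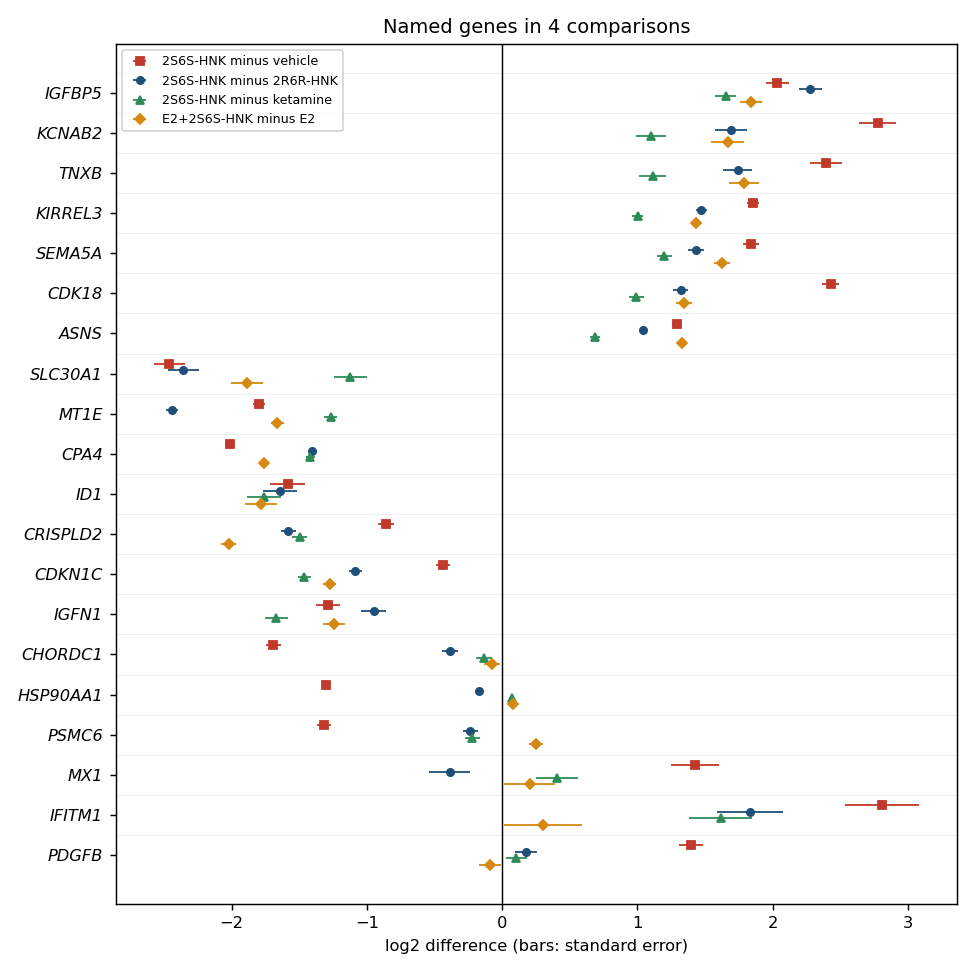
Log2 differences (x axis, bars are standard errors) of 20 named genes (y axis) in 4 comparisons of 2S6S-HNK. From IGFBP5 to IGFN1 all 4 symbols of a gene lie on the same side of 0, while CHORDC1, HSP90AA1 and PSMC6 lie below -1 only against vehicle.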

How the data were processed

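The authors prepared amplified cDNA libraries (Ovation RNA-seq system v2) and sequenced them as paired reads. Per the submitters' processing notes they aligned the reads with TopHat2 2.0.14 and Bowtie2 2.2.6 to hg19 and counted with featureCounts 1.4.6. The paper's methods name older releases of the aligners and counts of uniquely mapped pairs. The authors deposited raw counts per gene for 16 libraries, used here as deposited. Strandedness is not given in the sources used here, so antisense and overlapping genes cannot be told apart.

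Counts were analysed with edgeR 4.0.16 in R 4.3.3. filterByExpr kept 16004 of 25370 genes, TMM normalized them, and every contrast came from 1 quasi-likelihood fit of all 16 libraries to their 8 group means (8 residual degrees of freedom), with Benjamini-Hochberg adjustment over all genes of a contrast. The 95% intervals use 8 degrees of freedom. GC content and exon length came from GENCODE models on GRCh37, matched by symbol for 95.8% of genes tested. The offset was fitted library by library with loess (span 0.5). On simulated counts of the main comparison in which 200 genes differed by 1.5 on the log2 scale, 83% of them were recovered by edgeR with 1 false call. With a GC trend added it made 1083 false calls, and 1 with the offset. The offset is built to remove such a trend, so these counts do not test where the trend in the data arose.

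Named genes are the 10 largest rises and falls called (mean of at least 5 CPM, groups apart), up to 4 called members of each gene list (at least 1 CPM), genes fixed from the study's text and their regulators, and the 5 largest direct differences and interactions in each direction (at least 5 CPM). Further list members were chosen after their values had been seen. The members and lists were chosen with earlier results of these data known. Alternatives were DESeq2 1.42.0, the groups compared only, upper-quartile normalization, other filters, halved counts, the replicate block, the offset, and each library left out. Some genes are not reported here.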

Additional observations from a re-analysis of the deposited data

Results flagged for a closer look

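The effect of 2S6S-HNK differed with and without E2 by a test of the interaction in 10 genes that were taken for the 5 largest such differences in each direction among genes with a mean of at least 5 CPM (E2+2S6S-HNK minus E2, less 2S6S-HNK minus vehicle, log2 scale). It was higher with E2 in LINC01111, a non-coding RNA, by 1.70 ± 0.12 (GC-offset value 0.69), in CHORDC1 by 1.62 ± 0.081 (0.74), in CCDC58 by 1.59 ± 0.14 (0.72), in PSMC6 by 1.57 ± 0.074 (0.81) and in TWISTNB, a subunit of RNA polymerase I, by 1.54 ± 0.13 (0.70). It was lower with E2 in PDGFB, a growth factor (-1.49 ± 0.12, GC-offset value -0.89), in CIB2 (-1.43 ± 0.12, GC-offset value -0.88), in ZNF469 (-1.41 ± 0.17, GC-offset value -0.64), in CLIC3 (-1.41 ± 0.13, GC-offset value -0.73) and in GPRC5C (-1.39 ± 0.10, GC-offset value -0.77). The 5 genes higher with E2 all fell under 2S6S-HNK alone, LINC01111 from 17.7 and 19 CPM to 9.07 and 8.5 CPM and TWISTNB from 16.2 and 16.4 CPM to 7.26 and 6.46 CPM. CHORDC1 and PSMC6 were also lower than vehicle with E2 alone (log2 fold changes -1.24 and -1.02). Both were lower than vehicle with 2R6R-HNK (-1.31 and -1.08) and with ketamine (-1.56 and -1.10) too. PDGFB rose from 6.62 and 5.72 CPM to 15.9 and 16.6 CPM without E2 and was at 14 and 12.2 CPM with E2 and 11.2 and 13.5 CPM with E2+2S6S-HNK. The part of GC content in these differences was not tested beyond the offset.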

How the results depend on the processing

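The count of genes changed by 2S6S-HNK against vehicle lay between 1132 and 1452 under DESeq2, fits of the 4 libraries alone, upper-quartile normalization, other filters, halved counts and the replicate block, and between 1330 and 1550 with each library left out. It moved to 754 with the GC and length offset and 742 with that offset and the replicate block. Genes called higher were 57.7% of calls, 70.3% with upper-quartile normalization (995 higher, 421 lower) and 67.5% with the offset. With each library left out in turn, counts were 357 to 380 against 2R6R-HNK, 235 to 290 against ketamine and 529 to 557 in the presence of E2. For the interaction they were 9989 to 10225, and 1538 to 1917 with a difference of at least 1, but 6525 and 268 with the offset. An arm of 1 library was taken to vary like the other groups. The replicate block gave 1452, 401, 278, 584 and 10389 calls. The numbers did not pair 2S6S-HNK with vehicle, since their replicate differences correlated at -0.02 across genes. Over all pairs of groups this correlation ran from -0.147 to 0.087. The lowest was that of 2S6S-HNK with E2+2S6S-HNK, and that of E2 with E2+2S6S-HNK was -0.109. Crossing the numbers of E2+2S6S-HNK, chosen after seeing the data, gave 582 and 10430.

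Of 135 genes named by the rule given with the processing, which leaves out list members chosen after their values had been seen, 125 kept their direction and their side of an adjusted p of 0.05 in every alternative run on them. Among these 135, directions reversed with the offset alone or with the replicate block for SOCS1 (-0.51 and -0.51), SOCS3 (-0.34 and -0.34), ZNF469 (-0.30 and -0.30) and CLIC3 (-0.031 and -0.031), and SOCS1 ran from -0.12 to 0.26 with each library left out. The medians of 14 gene lists changed sign with the offset. The cause was not tested. Genes near 1 CPM, such as OAS1 and MX2, rest on few counts.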
